A study of Mus musculus with 15 samples.

Results

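The striatum of mice with intracerebral hemorrhage that were given Buyang Huanwu decoction (BYHWD) was compared with that of mice with hemorrhage that were given water (ICH). The comparison uses 10 of the 15 arrays of the study, 5 labelled BYHWD and 5 labelled ICH, chosen by sample title alone, and the 5 sham arrays enter the estimate of the spread. The study was set up to derive gene expression signatures of the decoction. All mice were male and were gavaged once a day for 14 days, and tissue of the injured side was taken on day 14 after perfusion with saline. BYHWD mice received 6.19 g/kg of the decoction powder in distilled water, and ICH and sham mice received distilled water alone. That BYHWD mice also had a hemorrhage follows from the series title, since their own labels name the decoction alone. The tissue is called striatum in one label and basal ganglia in the treatment protocol. Strain, age and the way the hemorrhage was induced are not given in the sources used here. The labels number the samples without saying that each is a separate mouse, so p-values measure only the spread between these samples, which may be technical.

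Intracerebral hemorrhage is bleeding into the brain tissue, most often in the basal ganglia, where red cells break down and release hemoglobin and iron. Microglia, astrocytes and blood-borne cells then clear the clot over days to weeks and raise genes of lipid transport, antigen presentation and cell death. Buyang Huanwu decoction is a formula of traditional Chinese medicine, led by Astragalus root and given after stroke. Bulk tissue mixes all these cells, so fewer cells of a type and less RNA per cell cannot be told apart.

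Levels are log2 intensities minus the 75th percentile of each array, so a level of 0 is as bright as that percentile and a difference of 1 is 2-fold. Of the 51669 probes tested, 45 carry a gene symbol through an accession, and the others are known here by identifier only. A probe passed when its limma p, adjusted by Benjamini-Hochberg over all tested probes, was under 0.05. The slide of each array overlaps with its group. ICH 2 and ICH 3 lay on slide 1 with all 5 sham arrays, ICH 1, ICH 4 and ICH 5 lay on slide 2, and the 5 BYHWD arrays filled slide 3. Each result is therefore given against all 5 ICH arrays and against those of each slide. Both slide contrasts use the same BYHWD arrays and are not independent, and in none can decoction and slide be told apart. Well above background were 82.5% ± 0.95 of the spots on BYHWD arrays and 83.0% ± 1.3 on ICH arrays (SD, n = 5 each). The 75th percentile, in log2 intensity, was 8.10 to 8.59 on the BYHWD arrays, 8.72 to 8.82 on the ICH arrays of slide 1 and 8.03 to 8.24 on those of slide 2, and precision is limited by how few arrays there are.

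In the treated mice Nup50, a nuclear pore gene, was 0.721-fold as high as in ICH, and the kinase gene Trp53rka was 0.784-fold as high, only just past the test. Injury genes (Apoe, H2-Q7 and Gsdmd) did not differ past the test. The T-cell cytokine gene Il2 was 0.339-fold as high as on the ICH arrays of slide 2, and the homeobox gene Lhx1 was 1.64-fold as high, while both differed by at most 0.10 (log2) from those of slide 1. A probe without a gene name, ASMM10LNC1A114479720V4, was 3.01-fold higher in BYHWD than in ICH on both slides together.

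Against all 5 ICH arrays, 1868 probes were higher in BYHWD (3.62% of those tested) and 1298 were lower (2.51%). Of these 3166, 286 differed at least 2-fold. Against the ICH arrays of slide 1, 3018 were higher (5.84%) and 689 lower (1.33%), and against those of slide 2, 7824 were higher (15.1%) and 6508 lower (12.6%). Scaling by the median gave 2128 higher and 882 lower against slide 1. Background correction with normexp gave 6075 higher and 9994 lower against slide 2, a reversal of the split. With it the median difference of all probes was 0.13 against slide 1, where it had been 0.01, and -0.11 against slide 2, where it had been -0.04. For comparison, 5826 probes were higher and 5554 lower on the ICH arrays of slide 2 than on those of slide 1, with no difference in treatment. Treating the slide as a random block left 1 probe past limma's test against all ICH arrays, and 3172 had an unadjusted p under 0.05, against 14285 without the block. In that fit BYHWD rests on 1 slide and ICH on 2, and the correlation of arrays within a slide was 0.361. Leaving out any 1 of the 10 arrays other than ICH 2 moved the 3166 calls against all ICH arrays by over 1.5 times, from 898 without BYHWD 3 to 6323 without ICH 3. Against slide 1, 286 probes passed without ICH 2, 1229 without ICH 3 and 2468 without BYHWD 2.

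Among the 45 named genes, 2 were lower in BYHWD than in all ICH arrays and none was higher. The genes were Nup50 and Trp53rka, and 2 of 45 is 4.44% beside 2.51% of all probes. Of the values, 11 were above 0 and 34 below, with a median of -0.15 beside 0.0021 over all probes. Against slide 1, 1 gene was higher (2.22%, beside 5.84% of all probes) and none lower (beside 1.33%), and the median was -0.06 beside 0.01. Against slide 2, 5 genes were higher (11.1%, beside 15.1%) and 7 lower (15.6%, beside 12.6%), and the median was -0.23 beside -0.04. These shares stand near those of all probes. All 5 BYHWD arrays lay above all 5 ICH arrays for 1 named gene (2.22%, beside 4.44% of all probes) and below them for 3 (6.67%, beside 3.67%). When the slide was a random block, no named gene passed in limma, and the smallest adjusted p among them was 0.773. Each named gene has 10 spots on an array, whose SD was 0.0677 at the median, below the SD between BYHWD arrays for 38 of the 45.

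**Figure D1:**
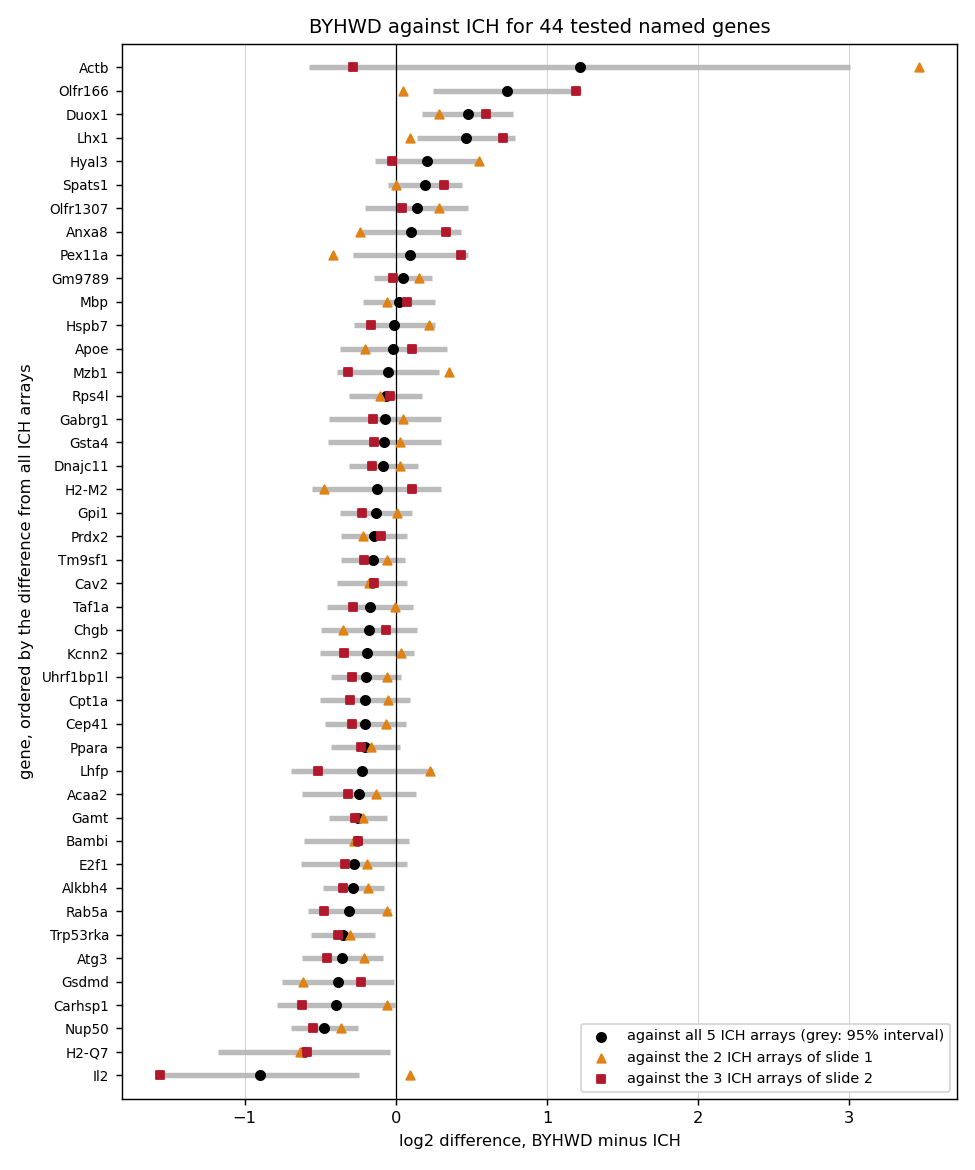
Log2 difference of BYHWD from ICH for 44 of the tested named genes, against all ICH arrays (black points, grey 95% interval) and against the ICH arrays of slide 1 (triangles) and slide 2 (squares). Most black points lie to the left of 0, and the triangle and square lie far apart for Actb, Il2 and Olfr166.

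Nup50, which encodes a nuclear pore protein that helps import proteins into the nucleus, was lower in BYHWD. Its level was -0.73, -0.88, -0.84, -0.74 and -0.65 on BYHWD 1 to 5, -0.38 and -0.43 on ICH 2 and ICH 3 of slide 1 and -0.28, -0.16 and -0.24 on ICH 1, ICH 4 and ICH 5 of slide 2. Every BYHWD array lay below every ICH array, and the sham arrays, at -0.66 to -0.24, overlapped both. The difference was -0.47 ± 0.10 SE (log2, 0.721-fold, 95% interval -0.69 to -0.25, limma adjusted p = 0.022). Against slide 1 it was -0.36, which did not pass (limma adjusted p = 0.0981), and against slide 2 it was -0.54 and did (limma adjusted p = 0.00241). The pooled value kept its sign in all 20 alternatives, but did not pass in 5 of them. These were the fits without BYHWD 2 or without BYHWD 3 (largest limma adjusted p 0.0558), with the replicate block (adjusted p = 0.0673), with a 2-fold change required and with slide taken as random (-0.46 ± 0.17 SE, adjusted p = 0.773).

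Trp53rka, a kinase that phosphorylates p53 and belongs to a complex that modifies transfer RNA, was lower at the edge of the threshold. It stood at -1.74, -1.83, -1.77, -1.41 and -1.87 on BYHWD 1 to 5 and at -1.48 to -1.33 on the 5 ICH arrays. BYHWD 4 lay within the ICH range and the other 4 BYHWD arrays lay below it and below the sham range of -1.65 to -1.42. The difference was -0.35 ± 0.10 SE (log2, limma adjusted p = 0.0489), with -0.30 against slide 1 and -0.38 against slide 2. It did not pass in 15 of 20 alternatives, whose adjusted p ran from 0.0247 to 0.773, and among single arrays only leaving out ICH 3 or BYHWD 4 kept it past the test. Trp53rka has a close copy, so its probe may read both.

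Alkbh4, a demethylase of the AlkB family, had the narrowest BYHWD values of these nuclear genes. The BYHWD arrays stood at -1.52, -1.57, -1.49, -1.50 and -1.59, below all ICH arrays (-1.36 and -1.35 on slide 1, -1.21 to -1.16 on slide 2) and all sham arrays (-1.46 to -1.08). It was the single named gene whose 5 BYHWD values lay outside those of all 10 other arrays, as did 566 of the 51669 probes on the lower side (1.1%) and 1223 on the higher side (2.4%). The difference of -0.28 ± 0.09 SE from all ICH arrays did not pass (log2, limma adjusted p = 0.0806). Alkbh4 was lower than on slide 2 (-0.35, limma adjusted p = 0.0187), a call lost without ICH 1 (adjusted p = 0.0641), and stood -0.18 from slide 1. Taf1a, a subunit of the RNA polymerase I selectivity factor, differed by -0.17 ± 0.13 SE and E2f1, a transcription factor of the cell cycle, by -0.28 ± 0.16 SE, neither past the test.

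**Figure D2:**
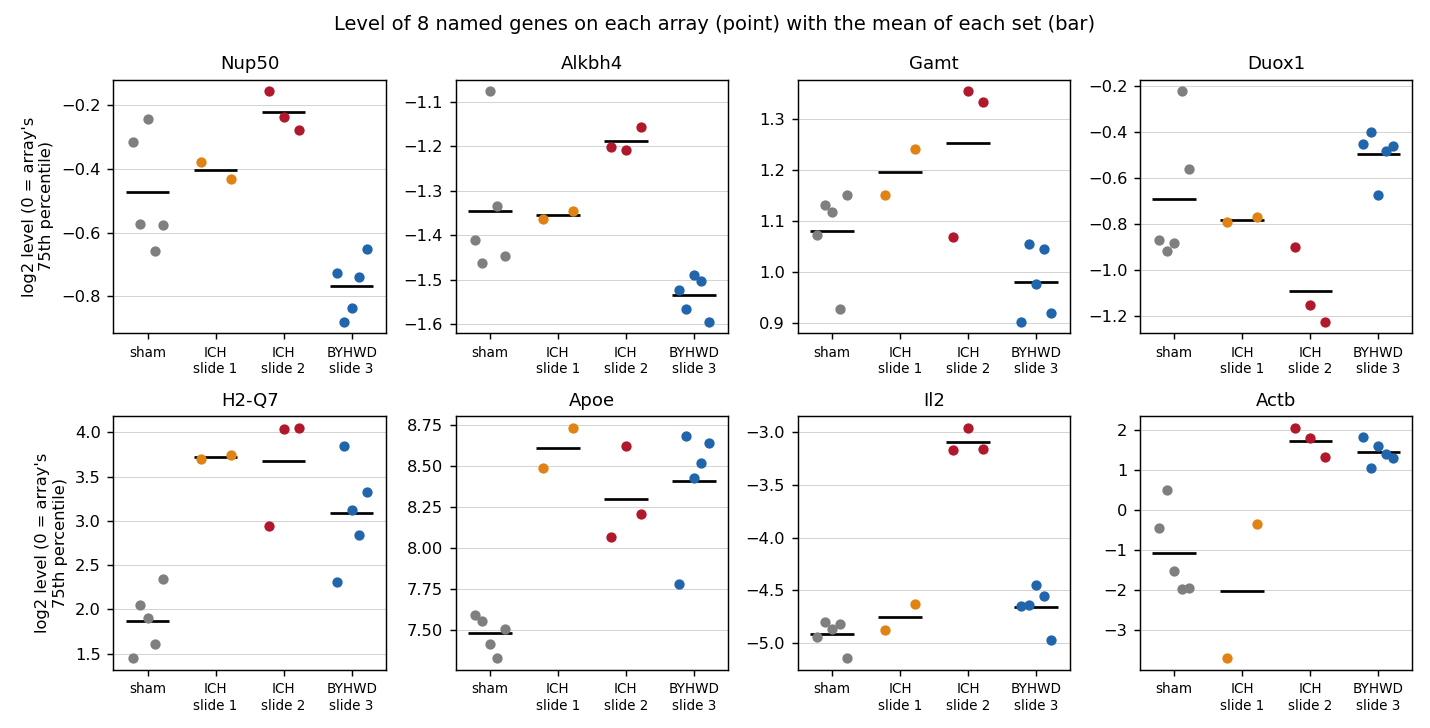
Level of 8 named genes on every array (points, log2 relative to the 75th percentile of the array) with the mean of each set (bars). BYHWD lies below all ICH arrays for Nup50, Alkbh4 and Gamt and above them for Duox1. For H2-Q7 and Apoe the BYHWD and ICH arrays overlap, and for Il2 and Actb the ICH arrays of slide 2 stand above those of slide 1.

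Genes of the response to injury did not differ past the test between BYHWD and all ICH arrays. H2-Q7, a class I histocompatibility gene of antigen presentation, stood at 2.30, 3.84, 3.12, 2.84 and 3.33 on BYHWD 1 to 5, at 3.69 and 3.74 on the ICH arrays of slide 1 and at 4.05, 2.94 and 4.03 on ICH 1, ICH 4 and ICH 5. BYHWD 1 lay within the sham range of 1.45 to 2.35, the other 4 BYHWD arrays lay above it, and ICH 4 was the lowest of the ICH arrays. The difference was -0.61 ± 0.27 SE (log2, 95% interval -1.17 to -0.04, limma adjusted p = 0.158), -0.41 without BYHWD 1 and -0.79 without ICH 4. It was -0.63 against slide 1 and -0.59 against slide 2, neither past the test. H2-M2, a nonclassical class I gene, had the same lowest arrays, BYHWD 1 at 2.22 and ICH 4 at 2.09, and differed by -0.13 ± 0.20 SE. It stood -0.48 from slide 1 and 0.11 from slide 2, neither past the test, so the sign depended on the slide. H2-Q7 and H2-M2 belong to a family of similar genes that a probe may not tell apart.

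Apoe, the lipid carrier that astrocytes and activated microglia make, stood at 7.78, 8.68, 8.43, 8.52 and 8.64 on the BYHWD arrays and 8.07 to 8.73 on the ICH arrays. BYHWD 1 was nearest to the sham range of 7.33 to 7.59, and the other 4 BYHWD arrays lay within the ICH range. The difference was -0.02 ± 0.17 SE (log2, 95% interval -0.37 to 0.34), and 0.14 without BYHWD 1. It was -0.20 against slide 1 and 0.11 against slide 2, neither past the test. Gsdmd, which encodes the pore protein of pyroptosis, stood at -1.97, -1.04, -1.49, -1.62 and -1.13 in BYHWD, with -0.94 and -0.73 on slide 1 and -1.14, -1.44 and -1.07 on ICH 1, ICH 4 and ICH 5. Again BYHWD 1 was the lowest, inside the sham range of -2.28 to -1.82, and ICH 4 was the lowest ICH array. The difference of -0.38 ± 0.17 SE did not pass (limma adjusted p = 0.169), nor did those of -0.61 from slide 1 and -0.23 from slide 2.

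Carhsp1, an RNA-binding protein that stabilizes the messenger of tumor necrosis factor, was lower in BYHWD than on slide 2 (-0.62, limma adjusted p = 0.0204) and stood -0.06 from slide 1. ICH 1 was the highest array at 3.03, and without it the slide 2 call was lost (adjusted p = 0.125). Il2, the growth cytokine of T cells, was far lower in BYHWD than on slide 2, with levels of -4.65, -4.64, -4.45, -4.55 and -4.98 on the BYHWD arrays and -3.16, -3.16 and -2.96 on ICH 1, ICH 4 and ICH 5. The ICH arrays of slide 1, at -4.87 and -4.63, and the sham arrays, at -5.15 to -4.80, lay with BYHWD, so that the 3 arrays of slide 2 alone stood high. The difference was -1.56 ± 0.13 SE from slide 2 (limma adjusted p = 4.13e-06), 0.10 from slide 1 and -0.90 from all ICH arrays (adjusted p = 0.0853). The probe is dim, with 4 of 5 BYHWD arrays well above background, and normexp gave 0.29 from slide 1 (limma adjusted p = 0.0351) and shrank the slide 2 value to -0.55. Mzb1, a chaperone of antibody-producing B cells, stood 0.35 from slide 1 and -0.32 from slide 2 without passing.

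Among the genes of energy use, only Pex11a passed a contrast. Most of their values lay below 0, as did 34 of the 45 values of all named genes against all ICH arrays. Gamt, the enzyme that completes creatine synthesis, stood at 0.90, 1.06, 0.98, 1.05 and 0.92 on BYHWD 1 to 5, at 1.15 and 1.24 on slide 1 and at 1.33, 1.07 and 1.36 on ICH 1, ICH 4 and ICH 5. All BYHWD arrays lay below all ICH arrays, only just so at ICH 4, and overlapped the sham range of 0.93 to 1.15. The difference of -0.25 ± 0.09 SE did not pass (log2, limma adjusted p = 0.0955) and was alike against slide 1 (-0.22) and slide 2 (-0.27). Cpt1a, which brings fatty acids into mitochondria, differed by -0.20 ± 0.14 SE, Acaa2, a thiolase of fatty acid oxidation, by -0.24 ± 0.18 SE, and Ppara, the nuclear receptor that drives this pathway, by -0.20 ± 0.11 SE. Gpi1, an enzyme of glycolysis, differed by -0.13 ± 0.11 SE, with 0.0056 against slide 1 and -0.23 against slide 2. Pex11a, which promotes the division of peroxisomes, stood at 2.24 to 2.56 in BYHWD, between 2.75 to 2.82 on slide 1 and 1.82 to 2.08 on slide 2. It was higher than on slide 2 (0.43, limma adjusted p = 0.0118, lost without ICH 1 at 0.0615) and -0.41 from slide 1 (adjusted p = 0.0711), so the sign depended on the slide.

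Duox1, an oxidase that makes hydrogen peroxide, was the one named gene with all BYHWD arrays above all ICH arrays. Its level was -0.45, -0.40, -0.67, -0.48 and -0.46 on BYHWD 1 to 5, -0.79 and -0.77 on slide 1 and -1.23, -0.90 and -1.15 on ICH 1, ICH 4 and ICH 5, while sham spanned -0.92 to -0.22. BYHWD 3 was the lowest treated array and lay nearest to ICH. The difference was 0.47 ± 0.14 SE (log2, limma adjusted p = 0.0566), which did not pass, 0.29 from slide 1 and 0.60 from slide 2, where it was past the test (adjusted p = 0.00882). Prdx2, a peroxiredoxin that reduces hydrogen peroxide, differed by -0.15 ± 0.10 SE and Gsta4, a glutathione transferase that detoxifies products of lipid peroxidation, by -0.08 ± 0.18 SE, neither past the test. Gsta4 stood 0.03 from slide 1 and -0.15 from slide 2.

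Rab5a, the GTPase of early endosomes, and Atg3, an enzyme that attaches lipid to LC3 in autophagy, were lower in BYHWD than on slide 2. Rab5a stood at 4.18, 4.04, 4.23, 4.06 and 4.20 on the BYHWD arrays, at 4.32 and 4.08 on slide 1 and at 4.75, 4.55 and 4.55 on ICH 1, ICH 4 and ICH 5. BYHWD lay below all 3 arrays of slide 2 and around the lower array of slide 1, and the difference from slide 2 was -0.48 ± 0.12 SE (limma adjusted p = 0.00923, lost without ICH 1 at 0.0516). Atg3 differed from slide 2 by -0.45 ± 0.14 SE (limma adjusted p = 0.0229) and from slide 1 by -0.21, and its call was lost without ICH 4, ICH 5 or BYHWD 2 (largest adjusted p 0.1). Against all ICH arrays the values were -0.31 ± 0.13 SE for Rab5a and -0.35 ± 0.13 SE for Atg3, neither past the test. Cav2, a caveolin, Anxa8, an annexin, Tm9sf1 and Chgb, a granin of secretory vesicles, ranged from -0.18 to 0.10 without passing.

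Lhx1 and Olfr166 repeated the pattern of Il2 in the opposite direction, with the arrays of slide 2 low and all others together. Lhx1, a homeobox transcription factor of neural development, stood at 0.11, 0.06, -0.17, 0.06 and 0.08 in BYHWD, -0.11 and -0.03 on slide 1, -0.76, -0.87 and -0.43 on ICH 1, ICH 4 and ICH 5, and -0.17 to 0.24 in sham. The difference was 0.71 ± 0.12 SE from slide 2 (limma adjusted p = 0.000788) but 0.10 from slide 1. Olfr166, an olfactory receptor gene, stood at 1.18 to 1.40 in BYHWD, 1.20 and 1.30 on slide 1, 0.09, 0.20 and 0.04 on ICH 1, ICH 4 and ICH 5, and 0.99 to 1.60 in sham. It was 2.28-fold higher in BYHWD than on slide 2 (log2 difference 1.19 ± 0.13 SE, limma adjusted p = 2.5e-05) and 0.05 from slide 1. Olfactory receptors form a large family of similar genes, so this probe may read relatives. Between the 2 ICH slides themselves, 4 named genes were higher on slide 2 (Actb, Hyal3, Il2 and Mzb1) and 4 lower (Anxa8, Lhx1, Olfr166 and Pex11a), 8.89% of the 45 each way. Of all 51669 tested probes 5826 were higher and 5554 lower there, so such calls were not particular to the named genes.

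Markers of the striatum's own cells were few. Mbp, the basic protein of myelin, was bright at 8.04, 8.32, 8.40, 8.45 and 8.23 on the BYHWD arrays and 8.03 to 8.39 on the ICH arrays, which overlapped, and differed by 0.02 ± 0.11 SE (95% interval -0.22 to 0.26). Kcnn2, a calcium-activated potassium channel of neurons, differed by -0.19 ± 0.15 SE, and Gabrg1, a subunit of the GABA-A receptor, by -0.07 ± 0.17 SE. Against slide 1 and slide 2, Mbp differed by -0.06 and 0.08, Kcnn2 by 0.04 and -0.34, and Gabrg1 by 0.05 and -0.15. None of these passed. Of the 24 gene lists drawn up for this tissue and injury, 17 had a tested member, 11 of them a single one and none more than 3. Against all ICH arrays the called members were Nup50 and Trp53rka. Other members passed against a single slide only, as given for each gene. No named probe belonged to the lists of astrocytes, striatal neurons, endothelium or myeloid cells. The labelled brain region could thus not be checked, and Mbp speaks only for myelin.

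Actb, the cytoplasmic actin often used as a loading control, was the most variable named gene. Its level was 1.83, 1.07, 1.60, 1.42 and 1.31 on BYHWD 1 to 5, -3.70 and -0.34 on ICH 2 and ICH 3 and 1.32, 2.06 and 1.80 on ICH 1, ICH 4 and ICH 5, and -1.97 to 0.51 in sham. The arrays of slides 2 and 3 were high and close together, and those of slide 1, sham included, were lower and scattered. BYHWD exceeded slide 1 by 3.46 ± 0.72 SE (limma adjusted p = 0.0107), a difference that was 1.78 without ICH 2 (adjusted p = 0.283) and 5.14 without ICH 3. It stood -0.28 from slide 2. The 10 spots of this probe on an array had a median SD of 0.073, so the scatter lay between arrays. Whether this scatter came from actin RNA or from the probe was not tested. Spats1 was higher than on slide 2 (0.32, limma adjusted p = 0.048), a call lost in 14 of 20 alternatives, among them 7 of the 10 that leave out an array (all but ICH 4, BYHWD 3 and BYHWD 4). Hyal3, a hyaluronidase, stood 0.55 from slide 1 (adjusted p = 0.0608) and -0.03 from slide 2. The other 9 tested genes (Bambi, Cep41, Dnajc11, Gm9789, Hspb7, Lhfp, Olfr1307, Rps4l and Uhrf1bp1l) differed from all ICH arrays by -0.26 to 0.14, none past a contrast. Tyr was not well above background on any array and was not tested.

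Over all probes, BYHWD lay closer to the ICH arrays of slide 1 than to those of slide 2. The median absolute log2 difference between 2 arrays was 0.169 to 0.233 for the 10 pairs of BYHWD arrays. It was 0.225 to 0.306 for the 10 pairs of a BYHWD array with an ICH array of slide 1, and 0.320 to 0.356 for the 15 pairs with slide 2. Within ICH the 6 pairs across slides differed by 0.324 to 0.378, the single pair of slide 1 by 0.174 and the 3 pairs of slide 2 by 0.203 to 0.219. ICH arrays of the same group but of different slides thus lay as far apart as BYHWD lay from slide 2. The median SD of a probe was 0.192 between the BYHWD arrays and 0.270 between all ICH arrays, but 0.123 within slide 1 and 0.182 within slide 2.

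**Figure D3:**
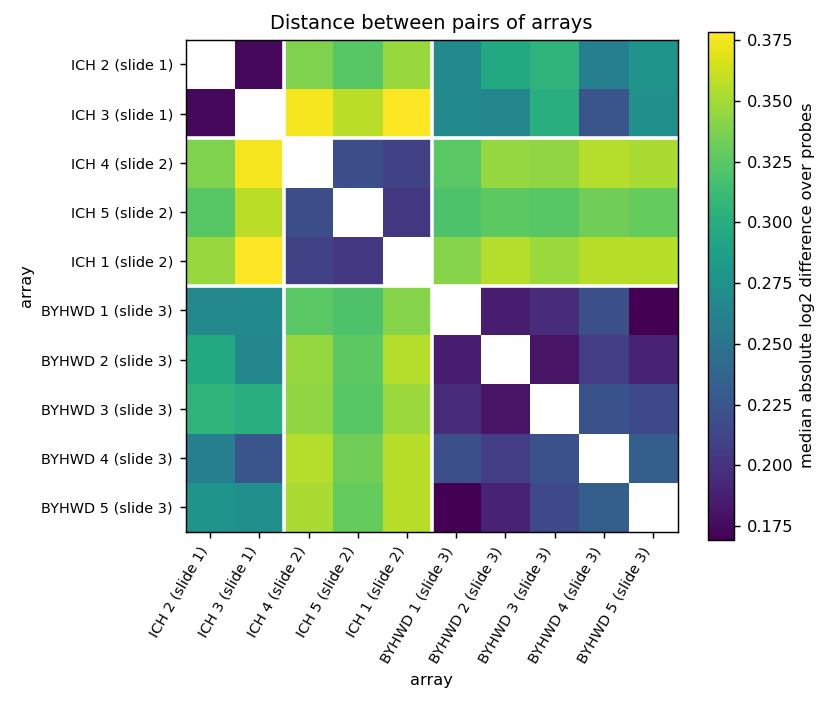
Median absolute log2 difference over the tested probes for each pair of the 10 arrays (colour scale), with white lines between the slides. Pairs within a slide, at 0.169 to 0.233, are dark and overlap those of BYHWD with slide 1, which start at 0.225, and pairs that join an array of slide 2 with one of another slide are the brightest, at 0.320 to 0.378.

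The probe whose BYHWD values stood farthest from every other array was ASMM10LNC1A114479720V4, which has no gene name here. Its level was -2.26, -2.27, -2.36, -2.17 and -2.41 on BYHWD 1 to 5, -3.79 and -3.93 on slide 1, -4.11, -3.70 and -3.88 on ICH 1, ICH 4 and ICH 5, and -4.32 to -3.95 in sham. The lowest BYHWD array lay 1.29 above the highest of the 10 others, the widest such gap of the 51669 probes. BYHWD was 3.01-fold higher than all ICH arrays (log2 difference 1.59 ± 0.11 SE, limma adjusted p = 5.39e-06), with 1.57 against slide 1 and 1.60 against slide 2. It was the 1 probe past the test with the slide as a random block (1.59 ± 0.18 SE, adjusted p = 0.00996), and it passed in all 21 alternatives of each contrast. In the deposited log2 table the pooled difference was 1.56. With normexp it was 0.59, with 0.84 against slide 1 and 0.42 against slide 2. This probe was singled out after its values were seen.

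By the fixed rule, which took the largest changes among probes past all 3 contrasts with no overlap of BYHWD and ICH (500 higher, 151 lower), 3 further probes are described. ASMM10AP1B109495176V4 stood at -4.66, -4.07, -3.96, -3.16 and -4.41 on BYHWD 1 to 5 and at -7.23 to -5.46 on the ICH arrays, none of which was well above background. Set against the floor defined below, BYHWD was 2.29-fold higher, with a fitted difference of 1.98 ± 0.34 SE (limma adjusted p = 0.00886). The sham arrays lay between, at -5.46 to -4.16. Among the falls, ASMM10LNC1A116578220V4 stood at -4.94, -4.81, -6.29, -5.57 and -5.54 in BYHWD, where only 2 of 5 arrays were well above background, and at -4.68 to -3.71 in ICH, where all 5 were. With BYHWD set no lower than the floor, it was 1.88-fold lower. The fitted difference of -1.31 ± 0.24 SE (limma adjusted p = 0.0118) rests in part on values under that floor. ASMM10LNC1A113448260V4 stood at -6.62, -6.18, -5.95, -6.46 and -6.03 in BYHWD, not well above background on any array, and at -5.47 to -4.55 in ICH, where 2 of 5 were. Its fitted difference of -1.30 ± 0.20 SE (limma adjusted p = 0.00708) rests mostly on values not well above background. No fold against the floor is given for it, since most ICH arrays were dim too. A fold against the floor sets the mean of the brighter group against a floor for each array of the dimmer group. That floor is the array's dimmest signal still well above background, or the probe's own if higher. Such a fold is not a strict lower bound, since the changes with normexp, given below, were smaller. Against slide 1 all 3 calls were lost without ICH 2 or without ICH 3, and that of ASMM10AP1B109495176V4 also without BYHWD 2, BYHWD 3 or BYHWD 4, with a largest limma adjusted p of 0.28, 0.2 and 0.306 for the 3 probes in this order. With normexp the values against all ICH arrays were 0.35, -0.22 and -0.17, none past the test (limma adjusted p = 0.183, 0.2 and 0.533). Against slide 1 they were then 0.63, -0.03 and 0.16, of which only the first passed, and against slide 2 0.17, -0.35 and -0.39, of which the first did not pass (adjusted p = 0.335). The rule's other rise, ASMM10UP266V4, is not described further. With normexp it was 0.99 against all ICH arrays (limma adjusted p = 0.00436), 0.77 against slide 1 and 1.13 against slide 2, all past the test.

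**Figure D4:**
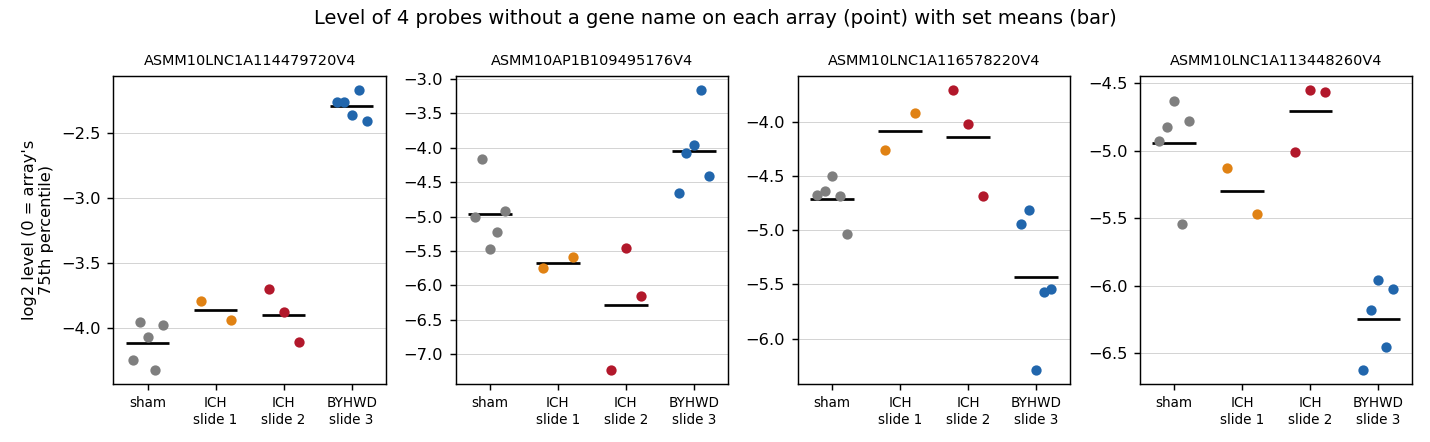
Level of 4 probes without a gene name on every array (points, log2 relative to the 75th percentile of the array) with the mean of each set (bars). For the first probe the 5 BYHWD arrays lie between -2.41 and -2.17 and all others at or below -3.70, while the other 3 probes are dim and more scattered.

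Few probes switched between measured and not measured. Of 60522 probes, 46180 were well above background on all 10 BYHWD and ICH arrays and 6757 on none of them. On all 5 BYHWD arrays and no ICH array 14 probes were above background, 3 of which were also below it on every sham array, and 23 showed the reverse. By comparison, 50 probes were above background on all BYHWD arrays and on all 3 ICH arrays of slide 2 but on neither of slide 1.

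Probes differ in the class that their names show, whose meaning the files do not state apart from the words lincRNA or LNC in some. The class named lincRNA, for long intergenic noncoding RNA, takes names that begin with humanlincRNA or mouselincRNA or contain LINCRNAEXON. Names with human and with mouse were not counted apart. Among the probes of this class most calls were higher in BYHWD. Of 1030 tested, 90 were higher (8.74%, beside 3.62% of all probes) and 2 lower (0.19%, beside 2.51%) than on all ICH arrays, with a median difference of 0.25 beside 0.0021. Against slide 1, 176 were higher (17.1%, beside 5.84% of all probes) and 7 lower (0.68%, beside 1.33%), with a median of 0.30. Against slide 2, 198 were higher (19.2%, beside 15.1%) and 54 lower (5.24%, beside 12.6%), with a median of 0.17. Shares in the larger classes stood nearer to those of all probes. The 19916 tested AP1B probes had 547 higher (2.75%) and 599 lower (3.01%) against all ICH arrays (median -0.06). The 23866 LNC1A probes had 942 (3.95%) and 593 (2.48%, median 0.03), and the 6342 ASMM10P probes 273 (4.30%) and 94 (1.48%, median 0.05).

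The lincRNA-named probes are dim, so their values are set beside those of probes of like brightness and beside the background. With the tested probes ranked by brightness in 5 equal sets, in the dimmest set 9.54% of the 409 lincRNA-named probes and 3.51% of all 10334 were higher than on all ICH arrays, with medians of 0.28 and 0.04. In the brightest set the shares were 3.70% of 81 and 2.92% of 10334, with medians of 0.11 and -0.0014. The median level of the lincRNA-named probes was -3.06 to -2.87 on the BYHWD arrays, -3.33 and -3.22 on the ICH arrays of slide 1 and -3.19 to -3.02 on those of slide 2. The median of the probes named as negative controls was -7.23 to -7.02 in BYHWD, -7.73 and -7.67 on slide 1 and -7.12 to -6.74 on slide 2, which moved with the slide. The part of background in the lincRNA values was not tested. Their median lay above that of all probes in all 21 alternatives of each contrast, but with normexp it was -0.08 against slide 2, beside -0.11 for all probes. Counts of calls moved much more. The probes called higher ran from 0 to 119 against all ICH arrays, from 19 to 550 against slide 1 and from 56 to 238 against slide 2, where those called lower ran from 6 to 131. With normexp the split against slide 2 was reversed, at 85 higher and 131 lower, and 14 probes were higher against all ICH arrays. The share called higher exceeded that of all probes in 19, 21 and 19 of the 21 alternatives of these contrasts. None of them passed in limma when the slide was a random block.

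**Figure D5:**
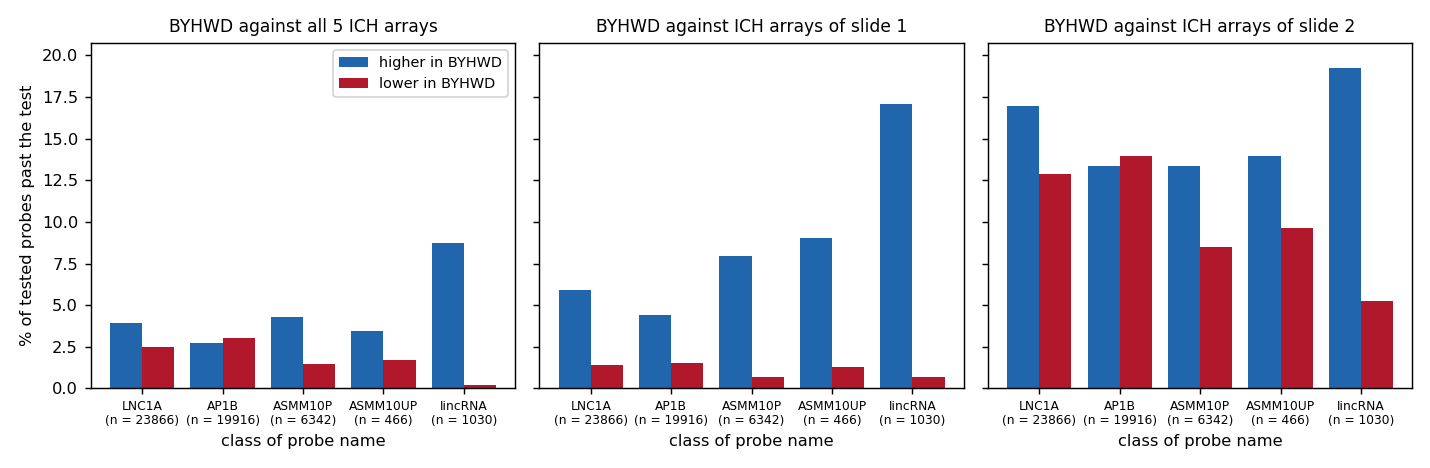
Share of tested probes past limma's test in each class of probe name (bars, in percent; blue higher and red lower in BYHWD), against all ICH arrays and against those of each slide. The lincRNA class has the tallest blue bar in each panel, at 8.74%, 17.1% and 19.2%, and both bars of every class are tallest in the panel of slide 2.

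Control probes for RNA quality overlapped between BYHWD and ICH. Between the ICH slides the values of Gapdh did not overlap and those of Pgk1 did, and this difference was not tested. For Gapdh, the level near the 3' end minus that near the 5' end averaged 0.48 ± 0.10 on BYHWD arrays and 0.61 ± 0.19 on ICH arrays (log2, SD, n = 5 each; 2-sided exact permutation p = 0.214, adjusted p = 0.429 over 4 tests). The ICH arrays stood at 0.33 and 0.52 on slide 1 and at 0.61 to 0.79 on slide 2. All 5 BYHWD arrays, at 0.32 to 0.60, lay below those of slide 2. For Pgk1 the same difference was 7.88 ± 0.06 and 7.67 ± 0.17 (SD, n = 5 each; 2-sided exact permutation p = 0.0317, adjusted p = 0.127), with 7.42 and 7.68 on slide 1 and 7.58 to 7.85 on slide 2. All 5 BYHWD arrays, at 7.77 to 7.93, lay above both ICH arrays of slide 1 for Pgk1. On every array, sham included, the Pgk1 difference was far larger than that of Gapdh. How far it reads RNA quality was not tested. The share of spots above background did not differ past the test (2-sided exact permutation p = 0.492, adjusted p = 0.656), nor did the 75th percentile (2-sided exact permutation p = 0.968), where the smallest p that 5 against 5 allows is 0.00794. The share above background was 81.4% to 84.0% on BYHWD arrays, below the 84.3% of both slide 1 arrays. These contrasts with single slides were not tested. The part of RNA quality in the gene differences was not tested.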

How the data were processed

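One-colour arrays, 1 per sample, were hybridised with Cy3-labelled RNA, per the labels' protocols. The deposited scanner files hold spot intensity from Agilent Feature Extraction, per the file headers, corrected for background within each array and not scaled between arrays. Their deposited flags for outlying, saturated and well-above-background spots were used as given (other columns, per the file headers). The authors' deposited table of log2 values covers 34099 probes, with scaling and centring not given in the sources used here. Its column medians ran from 6.50 to 6.54, and each of its 15 columns followed the scanner values of its own array most closely (r = 0.959 to 0.987 across probes). It served as an alternative.

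From the intensity, outlying spots (25 to 93 per array) were left out, log2 values of a probe's spots were averaged and each array's 75th percentile over the probes that are not controls was subtracted. No spot was saturated. Another 132 probes were left out as control probes by name, which left 60691. The test took probes that 5 or more of the 15 arrays measured well above background. Symbols came from 50 accessions looked up in RefSeq's mouse gene table (assembly GRCm38.p6), and 46 gave a symbol. No coordinates are printed, since the files name another build.

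All 15 arrays entered each fit in limma 3.58.1 under R 4.3.3 (lmFit, eBayes), with no covariate, 2-sided, with ICH whole or divided by slide. Slides were read from the scan field of the file headers. The limma step was tested on simulated data with independent noise and no slide effect, so that test does not bear on the part of slide in the calls. The RNA quality measures had exact permutation tests of all 252 groupings. Named genes are the 45 tested ones, of which 1 is not reported here. Of probes without a name, the rule gave 2 rises, of which the second is replaced by the probe past the test with the slide as a random block, and 2 falls. The comparison, the gene lists and the rules were chosen with earlier results of these data known. Alternatives covered the normalization, the background correction, the filter, the samples in the fit, the variance model, a fold threshold, the blocks, the deposited table and each array left out.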

Additional observations from a re-analysis of the deposited data

Results flagged for a closer look

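Among 98 sets of 5 values within BYHWD or within ICH, 5 held 1 array that stood far apart, and chance alone flags about 1 set in 20. All 5 were in BYHWD. Apoe was 7.78 on BYHWD 1 and 8.43 to 8.68 on the other BYHWD arrays. E2f1 was -3.73 on BYHWD 5, with the others at -3.18 to -2.99. Lhx1 was -0.17 on BYHWD 3, with the others at 0.06 to 0.11. Ppara was -2.11 on BYHWD 2, with the others at -1.94 to -1.88. Trp53rka was -1.41 on BYHWD 4, with the others at -1.87 to -1.74.

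Outside the probes tested, the control probe ETG10_13482 averaged -2.85 on the ICH arrays of slide 2 (-3.78 to -2.19) and lay between -7.97 and -7.08 on the 12 other arrays, BYHWD and sham included. The part of this signal in the comparisons with slide 2 was not tested.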

How the results depend on the processing

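Against all ICH arrays, 3166 probes passed. With normexp (offset of 50 units) 1313 passed, with only the ICH and BYHWD arrays in the fit 1710, with a change of at least 2-fold required as well 286, with the replicate number as a block (replicate block) 596, and 1 when the slide was a random block. Leaving out 1 array gave 898 (without BYHWD 3) to 6323 (without ICH 3). Against the ICH arrays of slide 1, where 3707 passed, normexp gave 14382, the 2-fold requirement 862, the replicate block 1471, the deposited log2 values 2219 of their 34099 probes, and single arrays left out 286 (without ICH 2) to 4218 (without BYHWD 4). With 1 array of slide 1 left, that array is assumed to vary like the other groups. Against slide 2, where 14332 passed, the 2-fold requirement gave 2384, and the other alternatives stayed within 1.5 times. A higher fold can only leave less to call, and the cause of the other shifts was not tested.

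No pairing of the arrays by replicate number was seen. The correlation of same-numbered BYHWD and ICH arrays, as deviations from their group means, was -0.22 to 0.03 over the 5 numbers. No BYHWD array correlated best with its own number. The ICH deviations also hold the difference between the ICH slides, so this check cannot exclude a pairing. Of the values of named genes and probes, 1 reversed, ASMM10LNC1A113448260V4 against slide 1, which was 0.16 with normexp (adjusted p = 0.341). In addition, 108 of 2868 values that kept their side of the threshold changed sign. Normexp on the spot medians and the fits of only the arrays compared were chosen after seeing the data, and normexp on spot means was not run. Dim probes, such as those of Il2, Hspb7 and most lincRNA-named probes, are limited by background, and the 10 arrays on 3 slides limit every comparison.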
